A study of Mus musculus with 6 samples.

Results

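The 4 PFKFB enzymes and 2 further regulators of glycolytic flux, *Tigar* and *Txnip*, were examined in WT and RORγt N275D Th17 cells. They were picked by gene symbol, and all 6 were among the 16244 genes of the deposited table and among the 11908 that passed the filter of a mean of at least 10 normalized reads. RNA-seq had been performed on 3 WT and 3 N275D libraries, to ask how the mutant receptor alters the transcriptome of inflammatory Th17 cells. Th17 cells are CD4 T cells that secrete IL-17, and they need the nuclear receptor RORγt to form. The WT cells came from C57BL/6 mice (listed as C57BL/6NJ) and the mutant cells from N275D knockin mice on a C57BL/6 background, at 6 to 12 weeks of age unless otherwise noted. The zygosity of the knockin donors and the number of mice behind a library were not given for RNA-seq. Both groups started as naive splenic CD4+ T cells and received the same treatment for 3 days, namely anti-CD3 and anti-CD28 with IL-6, IL-1β and IL-23. According to the methods, the pathogenic Th17 condition also held TGF-β, anti-IL-4 and anti-IFN-γ, whereas the series description names only the first 3 cytokines. The mice of the 2 genotypes had different sources, so that genotype, source and culture cannot be told apart. The labels do not say whether the replicates were separate mice or cultures, and p-values therefore measure only the spread between these libraries.

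PFKFB enzymes are bifunctional. Their kinase domain makes fructose 2,6-bisphosphate, the strongest allosteric activator of phosphofructokinase-1, and their phosphatase domain removes it. PFKFB3 is the family member whose kinase activity most exceeds its phosphatase activity, and it is induced in activated and hypoxic cells. PFKFB4 is another hypoxia-inducible isozyme, PFKFB2 is known from heart and is activated by AKT, and PFKFB1 is the liver isozyme. TIGAR, a target of p53, resembles the phosphatase domain of these enzymes and lowers fructose 2,6-bisphosphate, which diverts glucose to the pentose phosphate pathway. TXNIP, an alpha-arrestin, binds thioredoxin and promotes the removal of glucose carriers from the cell surface. Its gene is switched on by the glucose-sensing pair MondoA (*Mlxip*) and Mlx, and its transcript falls when T cells are activated.

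To show where the transcripts with the largest changes begin, the 250 bases before each annotated start of *Txnip*, *Pfkfb3* and *Pfkfb4* are given (RefSeq, GRCm38.p6, the build mm10 of the authors' alignment). All 6 members had at least 1 start in that table. Sequences run 5′ to 3′ on the strand of the gene, and capitals mark matches on either strand to ACGTG or GCGTG, the forms of the core that HIF-1 binds, to the E-box CACGTG, which contains ACGTG, and to a pair of CACGNG separated by 5 bases, the layout of a carbohydrate response element.
Txnip, chr3:96557707-96557956, plus strand: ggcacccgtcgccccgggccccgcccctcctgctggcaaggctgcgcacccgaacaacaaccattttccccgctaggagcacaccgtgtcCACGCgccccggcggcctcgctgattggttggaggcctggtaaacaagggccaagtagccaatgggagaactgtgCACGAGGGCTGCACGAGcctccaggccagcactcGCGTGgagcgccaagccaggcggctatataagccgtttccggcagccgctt
Pfkfb3, upstream start, chr2:11553930-11554179, minus strand: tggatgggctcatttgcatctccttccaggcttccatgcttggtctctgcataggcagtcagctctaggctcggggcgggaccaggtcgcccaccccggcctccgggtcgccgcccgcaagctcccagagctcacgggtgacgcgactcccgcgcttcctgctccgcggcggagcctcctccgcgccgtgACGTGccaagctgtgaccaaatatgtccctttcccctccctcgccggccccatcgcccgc
Pfkfb3, downstream start, chr2:11502091-11502340, minus strand: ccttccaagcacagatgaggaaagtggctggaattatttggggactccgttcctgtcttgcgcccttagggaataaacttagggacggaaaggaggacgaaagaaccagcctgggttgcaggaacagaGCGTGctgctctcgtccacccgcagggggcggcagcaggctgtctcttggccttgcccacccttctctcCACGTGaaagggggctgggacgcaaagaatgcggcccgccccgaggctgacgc
Pfkfb4, chr9:108991652-108991901, plus strand: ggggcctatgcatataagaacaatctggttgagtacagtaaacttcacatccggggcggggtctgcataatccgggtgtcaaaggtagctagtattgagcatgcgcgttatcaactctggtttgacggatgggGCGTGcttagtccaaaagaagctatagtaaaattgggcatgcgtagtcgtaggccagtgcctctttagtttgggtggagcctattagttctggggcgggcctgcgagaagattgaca

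The *Txnip* window held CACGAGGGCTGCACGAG from base -85 to base -69, counted back from the start. The carbohydrate response element layout was present in 15 of 32817 windows of the same length over all genes, or 0.0457%. The upstream start of *Pfkfb3* had 1 ACGTG (base -60 to -56), and its downstream start had the E-box CACGTG (-53 to -48) and a GCGTG. The *Pfkfb4* window had 1 GCGTG and no ACGTG, the *Txnip* window had 2 matches to the former (-160 to -156, on the opposite strand, and -51 to -47) and likewise no ACGTG, and the *Tigar* window had none of these motifs. Of the windows not shown, those of *Pfkfb2* had matches to all 3 short motifs and 1 window of *Pfkfb1* had 1 match of the kind seen at *Pfkfb4*. ACGTG was present in 16.6% of all windows, GCGTG in 28.1% and CACGTG in 6.02%, so that a match to these short motifs is common. A match is no evidence of binding, and the libraries do not show which start was used.

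The libraries held between 17659035 and 18510878 reads on genes. Values are normalized reads, that is, reads scaled by 1 factor per library. The defining markers of the labelled cell type were present in every library, with 75444 to 79580 normalized reads over 8 Th17 and CD4 T cell markers in WT and 87625 to 88703 in N275D libraries. *Cd3e* and *Cd4* were called lower, and *Rora*, *Il17a*, *Il17f*, *Il23r* and *Ccr6* higher. WT replicate 3 differed most from its group, at 5.11 and 5.67 times the variance that counting alone gives, against 1.61 to 2.02 times between N275D libraries.

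Of the 6 members, 3 were called higher (*Txnip*, *Pfkfb4* and *Pfkfb2*) and 1 lower (*Pfkfb3*) in N275D Th17 cells at an adjusted p under 0.05, whereas *Pfkfb1* and *Tigar* were not called. The share of called members was 66.7%, against 50.9% of all genes tested (24.7% higher and 26.1% lower). *Txnip* was also the sole member called at 2-fold, as were 3.59% of all genes tested (2.73% in the higher direction). The same 4 members were those whose genotypes did not overlap, which held for 57.7% of all genes (28.1% higher and 29.6% lower in the mutant). With 6 members, these shares do not set them apart from genes in general. In bulk libraries, a change in the number of cells that express a gene and a change in its RNA per cell cannot be told apart.

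**Figure D1:**
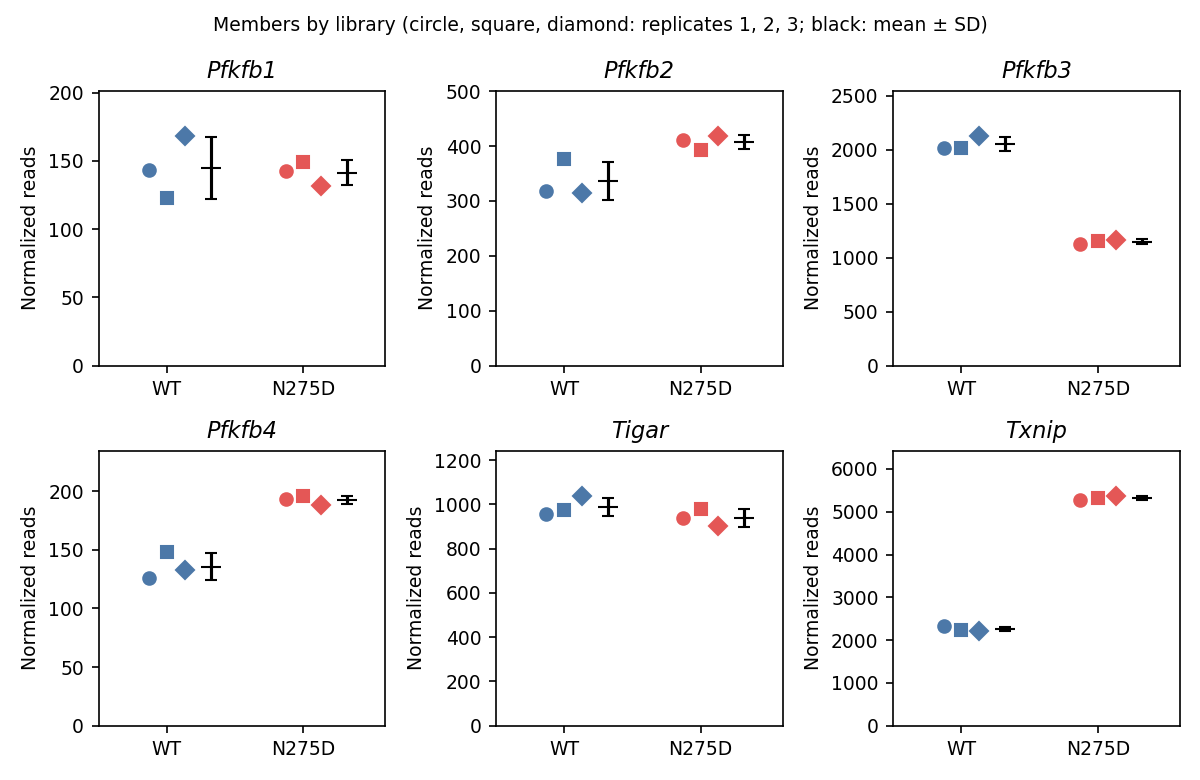
Normalized reads (y axes, each from 0) of the 6 members in each of the 3 WT (blue) and 3 N275D (red) libraries, with the mean ± SD in black beside the points. The genotypes are apart for *Pfkfb2*, *Pfkfb3*, *Pfkfb4* and *Txnip* and overlap for *Pfkfb1* and *Tigar*.

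*Pfkfb3*, on chromosome 2 (11471433 to 11554077), had 2019, 2016 and 2124 normalized reads in the WT libraries and 1124, 1152 and 1168 in the N275D libraries. The 3 WT values lay close together and far above all mutant values. The means were 2053 ± 61.3 in WT and 1148 ± 22.3 in N275D (SD, n = 3 each), a ratio of 0.559 with a 95% confidence interval of 0.525 to 0.597. The log2 fold change was -0.84 (SE 0.04, adjusted p = 2.64e-10 from limma). Only 150 of the 11908 genes tested had a more negative log2 fold change.

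The other hypoxia-linked isozyme went the opposite way. *Pfkfb4*, on chromosome 9 (108991778 to 109032228), had 126, 148 and 133 normalized reads in WT and 194, 196 and 189 in N275D libraries. All 3 mutant values lay above the highest WT value, and they spread less. The means rose from 136 ± 11.4 to 193 ± 3.61 (SD, n = 3 each), and limma gave a log2 fold change of 0.51 (SE 0.09, adjusted p = 0.000268). At this level, the 95% confidence interval of the ratio ran from 1.24 to 1.63.

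*Pfkfb2*, on chromosome 1 (130689182 to 130729253), showed a smaller increase. It had 319, 376 and 315 normalized reads in WT and 411, 393 and 418 in N275D libraries. WT replicate 2 lay nearest to the mutant values, and the genotypes did not overlap. The log2 fold change was 0.28 (SE 0.08, adjusted p = 0.00592 from limma), with means of 337 ± 34.2 and 407 ± 12.7 (SD, n = 3 each). An annotated same-strand gene, *Gm29427*, shares 17.4% of the exonic bases of *Pfkfb2*, and reads on those bases could belong to either.

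*Pfkfb1*, on chromosome X (150588229 to 150643878), had 143, 123 and 168 normalized reads in WT and 143, 149 and 131 in N275D libraries. The mutant values all lay within the WT range. The log2 fold change was -0.03, with a 95% confidence interval from -0.27 to 0.21 (adjusted p = 0.863 from limma). A difference within those bounds is compatible with these libraries. *Apex2*, on the opposite strand, overlaps 3.06% of its exonic bases.

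**Figure D2:**
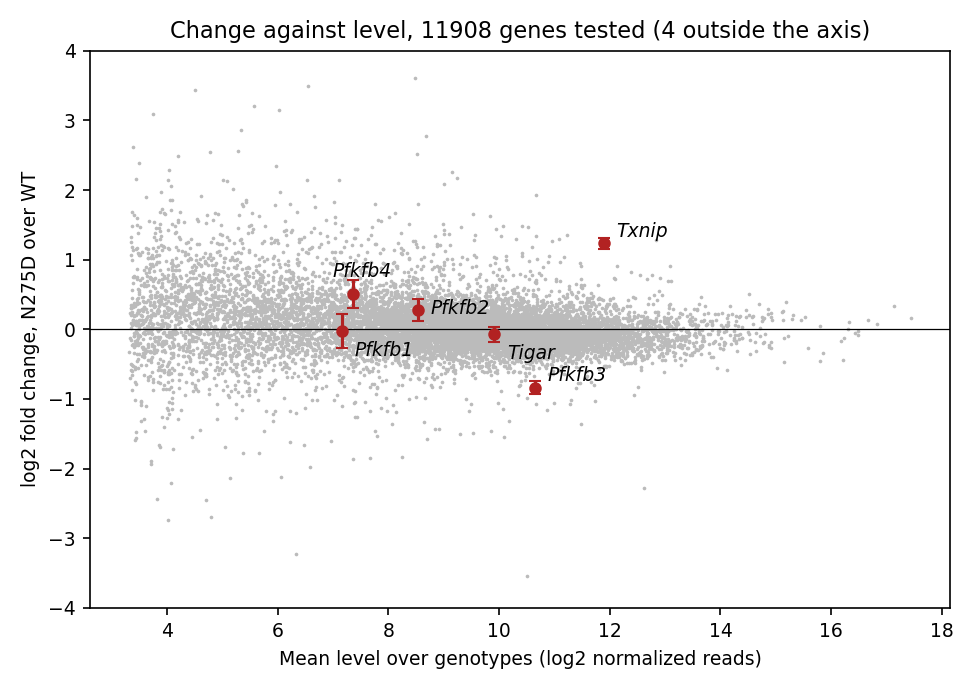
log2 fold change of N275D over WT (y axis) against the log2 mean level of normalized reads (x axis) for the genes tested (grey), with the 6 members in red and bars for their 95% confidence intervals. *Txnip* and *Pfkfb3* lie outside the bulk of genes at their level, above and below it, and *Pfkfb1* and *Tigar* lie near 0.

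Levels of different genes were compared per kilobase of annotated exons. On that scale, *Pfkfb3* had 272 ± 8.10 normalized reads per kilobase in WT and 152 ± 2.95 in N275D cells (SD, n = 3 each), and it remained the most abundant PFKFB transcript in every library. Its share of the PFKFB sum was 71.7%, 70.3% and 71.4% in the WT libraries and 52.98%, 53.7% and 54.5% in the N275D libraries. *Pfkfb2* went from a mean share of 12.2% to 19.9%, *Pfkfb4* from 7.29% to 14.0%, and *Pfkfb1* from 9.43% to 12.4%. The sum itself fell from 382 ± 10.6 to 283 ± 1.77 normalized reads per kilobase (SD, n = 3 each). For each of these 4 shares and the sum, the genotypes did not overlap, and the two-sided exact permutation test gave p = 0.1, the smallest p that 3 against 3 libraries allow. Since shares add up to a fixed total, the larger share of *Pfkfb1* came without a called change in its own level.

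**Figure D3:**
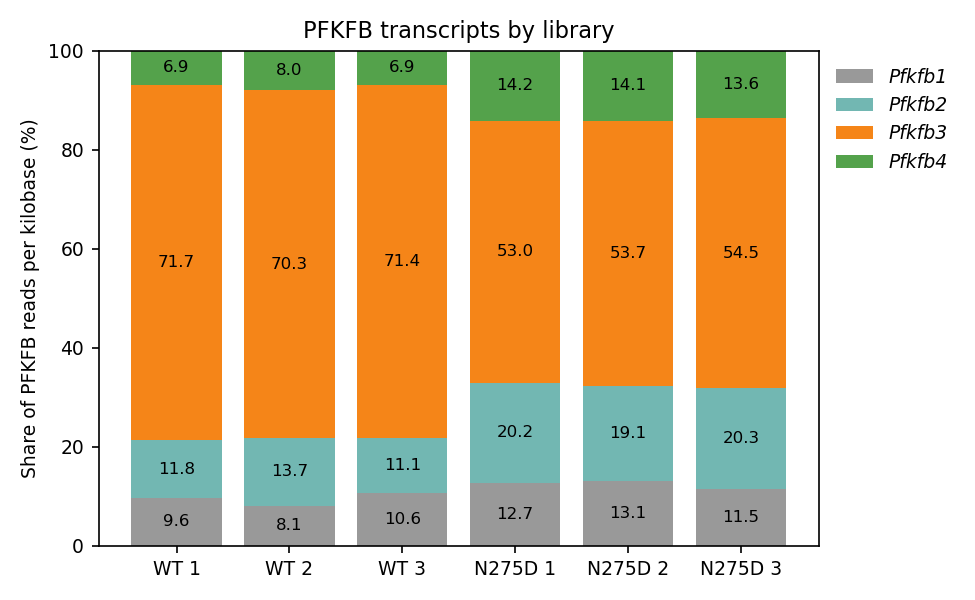
Share of each PFKFB transcript (y axis, percent of the summed normalized reads per kilobase) in each library, one bar a library. *Pfkfb3* takes between 70.3% and 71.7% in WT and between 52.98% and 54.5% in N275D libraries.

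A ratio of 2 genes within one library does not depend on how libraries are scaled, and it was used to ask whether the members changed unequally. The log2 ratio of *Pfkfb3* to *Pfkfb4* was 3.99, 3.76 and 3.99 in WT and 2.53, 2.55 and 2.62 in N275D libraries, a difference of -1.34. The log2 ratio of *Pfkfb3* to *Tigar* was 1.08, 1.05 and 1.03 in WT and 0.26, 0.23 and 0.37 in N275D libraries. *Pfkfb3* transcript was thus lower relative to *Tigar* in each mutant library, with a difference of -0.76. The ratio to *Txnip* moved most, from a mean of -0.14 to -2.21. For *Pfkfb1* and *Pfkfb2* the differences were -0.81 and -1.12. For all 5 ratios the WT and mutant libraries were apart, and each had a two-sided exact permutation p = 0.1 (adjusted p = 0.1 over 5 ratios), the smallest possible.

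**Figure D4:**
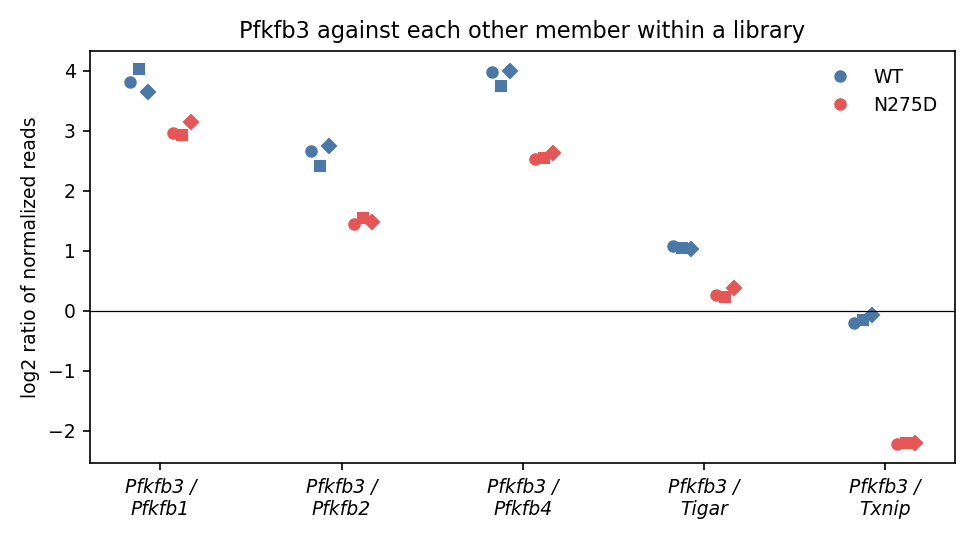
log2 ratio of *Pfkfb3* to each other member within a library (y axis, from normalized reads), for WT (blue) and N275D (red) libraries, with replicates 1, 2 and 3 as circle, square and diamond. For all 5 ratios the N275D points lie below the WT points.

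*Tigar*, on chromosome 6 (127085116 to 127109557), had 957, 975 and 1036 normalized reads in WT and 936, 981 and 902 in N275D libraries. The genotypes overlapped, with the mutant replicate 2 above 2 of the WT libraries. The means were 990 ± 41.6 and 940 ± 39.8 (SD, n = 3 each). The log2 fold change was -0.07, with a 95% confidence interval from -0.19 to 0.04 (adjusted p = 0.252 from limma). An antisense transcript, *Platr31*, overlaps 3.34% of its exonic bases.

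*Txnip*, on chromosome 3 (96557957 to 96561883), changed most. It had 2322, 2241 and 2224 normalized reads in WT and 5272, 5317 and 5360 in N275D libraries. Neither group spread by more than a small part of the gap between them. The means were 2263 ± 52.6 and 5316 ± 43.8 (SD, n = 3 each), a ratio of 2.35 with a 95% confidence interval of 2.23 to 2.48. The log2 fold change was 1.23 (SE 0.04, adjusted p = 4.51e-13 from limma), and 184 of 11908 genes had a larger one. Its mean level exceeded that of 92.1% of the genes tested. The antisense gene *Gm15441* overlaps 19.4% of the exonic bases of *Txnip*. The libraries were strand-specific according to both the labels and the methods, but the strand setting used for counting was not given, so reads of the antisense gene may be included.

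Per kilobase of exons, the order of the members in WT cells was *Txnip* (724), *Pfkfb3* (272), *Tigar* (271), *Pfkfb2* (46.4), *Pfkfb1* (36.0) and *Pfkfb4* (27.8), in mean normalized reads per kilobase. Among neighbours in that order, *Pfkfb3* and *Tigar* overlapped and did not differ beyond their spread. In N275D cells the order was *Txnip* (1702), *Tigar* (257), *Pfkfb3* (152), *Pfkfb2* (56.2), *Pfkfb4* (39.5) and *Pfkfb1* (35.1), with no overlap between neighbours. On that scale, *Tigar* and *Pfkfb3*, which overlapped in WT cells, were therefore apart in the mutant, and *Pfkfb4* and *Pfkfb1* had changed places. In WT, the lowest *Pfkfb1* value (30.6) lay just above the highest *Pfkfb4* value (30.4). The division uses all annotated exons, whichever of them the cells used. Without it, mean normalized reads of *Pfkfb3* exceeded those of *Tigar* in WT (2053 against 990) and in N275D (1148 against 940).

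The enzymes on which these regulators act were examined next, from lists of genes written with earlier results of these data known. Of 74 distinct pathway genes tested, 31 were called higher and 28 lower. Their median log2 fold change was 0.02, against a median of 0.00 over all genes tested. Together 79.7% of them were called, against 50.9% of all genes tested (24.7% higher and 26.1% lower). Those shares over all genes apply to each list count below, and no list was tested as a set. Phosphofructokinase-1, the target of fructose 2,6-bisphosphate, has 3 subunit genes. *Pfkp* had 6892, 6824 and 6546 normalized reads in WT and 10553, 11115 and 10991 in N275D libraries (log2 fold change 0.69, SE 0.04, adjusted p = 2.35e-10 from limma). *Pfkm* rose by a log2 fold change of 0.34 (adjusted p = 0.000437), and *Pfkl* fell by 0.12 (adjusted p = 0.0160), a call lost with quantile normalization. *Fbp1* and *Fbp2*, of the reverse reaction, were not analysed here. Among 16 further glycolytic enzymes tested, 12 were higher and 2 lower, with a median of 0.19. *Aldoc* (0.87) was among the higher genes, and *Hk2* (-0.51) and *Ldhb* (-0.37) were the lower ones. With quantile normalization, 8 of the 16 were called higher.

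TIGAR is known for favouring the pentose phosphate pathway. Of its 8 genes, 1 was higher and 3 lower, with a median log2 fold change of -0.10. *Pgls*, the lactonase, was higher (0.19), and *Rpia* (-0.41), *Pgd* (-0.20) and *Taldo1* (-0.16) were lower. *G6pdx* (0.03), the entry enzyme, *H6pd* (-0.09), *Rpe* (-0.11) and *Tkt* (-0.05) were not called. Among 17 other p53 target genes tested, 11 were lower and 3 higher, with a median of -0.43. *Eda2r* (-0.83) and *Phlda3* (-0.74) fell most, and *Pmaip1* (0.51) and *Sesn1* (0.26) rose most. *Trp53* itself was called lower at -0.10 (adjusted p = 0.0459 from limma), although its genotypes overlapped and the call was lost in 8 of 14 alternatives.

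**Figure D5:**
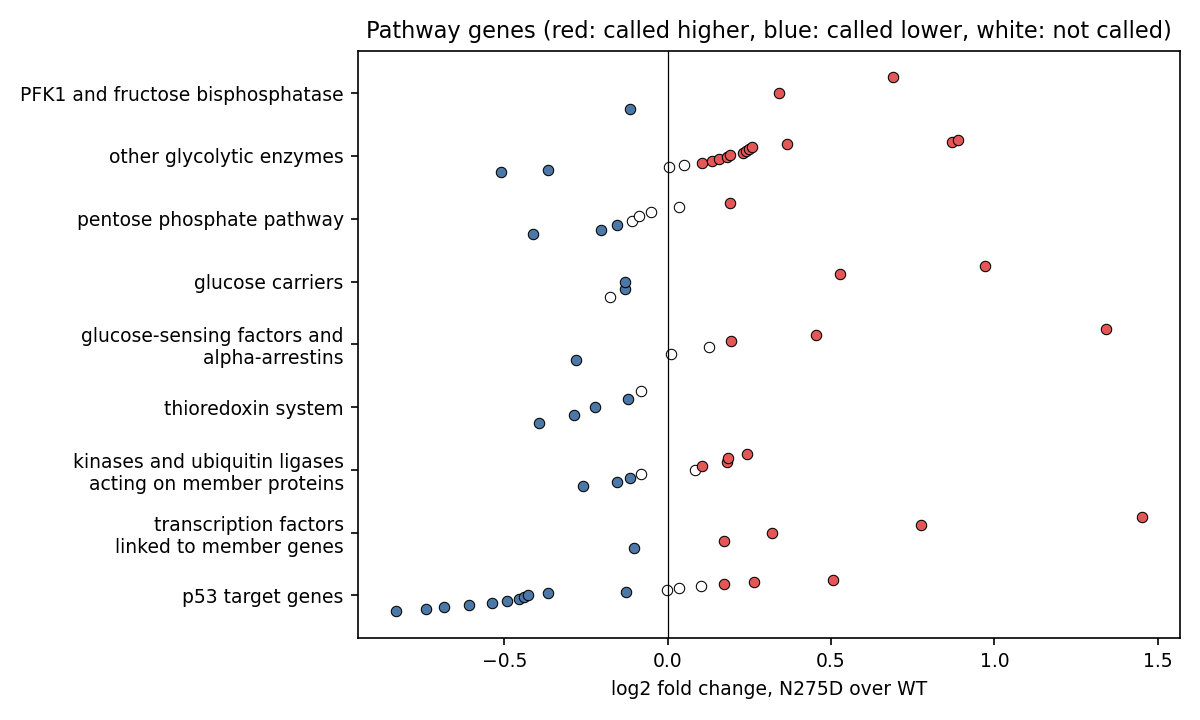
log2 fold change of N275D over WT (x axis) for each gene tested in 9 pathway lists (rows), filled red where called higher, blue where called lower and white where not called. Glycolytic enzymes lie mostly to the right of 0, and p53 targets and the thioredoxin system mostly to the left.

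Around *Txnip*, *Arrdc4* moved the same way. *Arrdc4*, the alpha-arrestin closest to TXNIP and a further target of MondoA, had 62.6, 62.5 and 74.7 normalized reads in WT and 172, 163 and 175 in N275D libraries. Its log2 fold change was 1.34 (SE 0.11, adjusted p = 6.94e-08 from limma). *Arrdc3* (0.45) and *Arrdc1* (0.19) were also higher, *Arrdc2* (0.13) was not called, and *Arrdc5* was not analysed here. Of the glucose-sensing factors, *Mlxip* was not called (0.01, adjusted p = 0.870), *Mlx* was lower (-0.28, adjusted p = 0.000303), and *Mlxipl*, with at most 4.91 normalized reads in a library, was not tested. In the thioredoxin system, with which TXNIP interacts, 4 of 5 genes were lower and none higher, namely *Txn1* (-0.12), *Txn2* (-0.29), *Txnrd1* (-0.22) and *Txnrd2* (-0.39), while *Txnrd3* (-0.08) was not called.

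The glucose carriers, whose surface level TXNIP limits, were split. *Slc2a3* (GLUT3) had 1452, 1459 and 1553 normalized reads in WT and 2935, 2872 and 2938 in N275D libraries (log2 fold change 0.97, SE 0.04, adjusted p = 2.83e-11 from limma). *Slc2a1* (GLUT1) was lower, from 8145, 8161 and 8396 to 7427, 7694 and 7447 (log2 fold change -0.13, SE 0.03, adjusted p = 0.00438 from limma). *Slc2a8* was higher (0.53), *Slc2a6* lower (-0.13) and *Slc2a9* not called (-0.18). The calls of *Slc2a1* and *Slc2a6* were lost with quantile normalization. *Slc2a2* and *Slc2a4* were too low to be tested.

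Among factors known to drive the members, *Hif1a*, which induces *Pfkfb3* and *Pfkfb4*, was higher with 5294, 5345 and 4772 normalized reads in WT and 8777, 8734 and 8845 in N275D libraries (log2 fold change 0.78). *Epas1* (1.45, from a mean of 20.4 to 57.1), *Arnt* (0.32) and *Myc* (0.17) were higher too. *Pfkfb3* and *Pfkfb4*, both known as HIF-inducible, differed in direction, and the transcripts of *Hif1a* and *Epas1* were both higher. HIF protein was not measured in these libraries, and its part in the changes of the members was not tested. Of 9 genes for kinases and ubiquitin ligases that act on member proteins, 4 were higher and 3 lower. *Prkaa1* (0.18), a subunit of AMPK, which phosphorylates PFKFB3 and TXNIP, was higher and *Prkaa2* (0.08) was not called. *Mapkapk2* (0.11) was higher, and *Akt1* (-0.12) and *Akt2* (-0.26) lower. Of the ligase subunits that send PFKFB3 to the proteasome, *Fzr1* (-0.16) was lower and *Btrc* (0.18) higher, and *Itch* (-0.08), the ligase of TXNIP, was not called. Of these calls, those of *Akt1*, *Mapkapk2*, *Fzr1* and *Btrc* were lost in at least 1 alternative.

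Genes that follow T cell receptor signalling, under which *Txnip* is known to fall, differed as well. Of 21 immediate early genes, 16 were lower and 5 higher, whereas 26.1% of all genes tested were lower and 24.7% higher. Their summed level was 72767 to 75686 normalized reads in WT and 51957 to 52485 in N275D libraries. *Il2* (-2.27) and *Egr3* (-1.55) fell most, and *Dusp5* (0.75) and *Jun* (0.60) rose most. Their part in the changes of the members was not tested. Markers of other cells also differed. Of 7 B cell markers tested, 6 were higher, with a summed level of 1145 to 1183 in WT and 1745 to 1804 in N275D libraries, most of it *Ebf1* (0.58). *Cd79a* (0.94), *Pax5* (0.42), *Blnk* (0.97) and *Cd22* (1.13) were also higher, *Cd79b* (0.53) was not called, and *Ms4a1* was at 0 in 2 WT libraries and at 9.88 normalized reads at most. Of 5 markers of CD8 T and natural killer cells tested, *Cd8b1* (0.58), *Klrd1* (0.79), *Klrk1* (0.72) and *Eomes* (0.69) were higher and *Cd8a* (-0.22) was not called, with sums over the list of 259 to 290 and 378 to 427. *Klre1* and *Klrb1c* were too low to test, with *Klrb1c* at 0 in the N275D libraries, and *Ncr1* was not analysed here. Myeloid markers summed to 104 to 121 and 116 to 142, with *Cd14* (0.99) higher, *Adgre1* (-1.70) lower, *Cd68* (0.32) not called, and *Lyz2*, *Csf1r*, *Itgam*, *Fcgr3* and *Spi1* not tested. The part of these markers' cells in the results was not tested.

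The genes whose log2 levels ran most nearly parallel to each member over the 6 libraries are given as a description, since any gene that separates the genotypes well correlates highly over so few points. *Txnip* was most like *Bend4* (Pearson r = 0.9998), *Serpinb9* (0.9997) and *Fhod3* (0.9996). *Pfkfb3* was most like *Dhrs3*, *Nol6* and *Mid1*, with r between 0.9996 and 0.99996. *Pfkfb4* was most like *Stx2* (0.999), *Csf2rb* (0.998) and *Dusp22* (0.996), and *Pfkfb2* most like *Armcx5*, *Ilk* and *Sun1* (0.984 to 0.986). *Tigar* was most like *Itpk1*, *Eps15l1* and *Ganab* (0.979 to 0.984), and *Pfkfb1* most like *Naa38*, *Tuba1a* and *Tnfrsf1a* (0.974 to 0.978). Among the members, *Pfkfb3* and *Txnip* had the strongest correlation, with r = -0.998 over the 6 libraries, which share the split by genotype.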

How the data were processed

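RNA-seq of 3 WT and 3 N275D Th17 libraries was analysed, with genotype and replicate taken from the labels. Per the methods, trimmed reads were mapped by the authors to mm10 (STAR) and assigned to genes with featureCounts, whose options are not given in the sources used here. The authors deposited a signal per gene, their normalized read count, which is the count multiplied by 1 factor per library: 100% of values in each library were whole multiples of that factor, within 1e-06. The deposited table also holds the authors' log2 fold changes, q-values (adjusted p-values) and group averages, none of which were used. Library totals lay between 17659035 and 18510878 reads.

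A pseudocount of 1 was added before taking log2, which understates the change of low genes. All 11908 genes with a mean of at least 10 were fitted with limma (version 3.58.1, R 4.3.3) with a trended prior, without a block, and p-values were adjusted by Benjamini-Hochberg over all of them. Calls are at an adjusted p under 0.05. Single values were compared by two-sided exact permutation over libraries. The labels do not say whether replicate numbers pair the libraries. Deviations from the group mean had correlations of -0.0455, 0.0407 and -0.0828 between same-numbered libraries. With so few libraries a group, these cannot settle whether the libraries were paired. In simulated data, with 11775 genes tested, limma called 92 of 97 genes changed 2-fold and 86 of 100 changed 1.5-fold, with 8 unchanged genes called. The simulation gave all libraries the same spread beyond counting and changed few genes. The real libraries differ in both respects, so these counts are not error rates for them.

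The members and gene lists were chosen with earlier results of these data known. Genes named are the 6 members, all genes of lists of up to 9, the 2 called genes at either end of longer lists, and the 3 most correlated genes of each member. Some listed genes are counted but not reported by name here. Further genes named were chosen after their values were seen: *Gm29427*, *Apex2*, *Platr31* and *Gm15441* for their overlap, and the genes whose promoter holds the carbohydrate response element layout. Positions and exonic lengths are from GENCODE M21 (GRCm38, the build mm10), and promoter windows of 250 bases from RefSeq (GRCm38.p6). Alternatives were pseudocounts of 0.1 and 10, TMM factors or quantile normalization, a mean filter of 100 or none beyond a mean above 0, eBayes without a trend, the replicate block and leaving out each library.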

Additional observations from a re-analysis of the deposited data

How the results depend on the processing

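The calls of *Pfkfb2*, *Pfkfb3*, *Pfkfb4* and *Txnip* held under all 14 alternatives, and *Pfkfb1* and *Tigar* were called in none. Log2 fold changes ran from 1.22 to 1.31 for *Txnip*, from -0.85 to -0.80 for *Pfkfb3*, from 0.39 to 0.57 for *Pfkfb4* and from 0.23 to 0.36 for *Pfkfb2*. *Pfkfb1* changed sign without WT replicate 3 (0.086) or N275D replicate 3 (0.024), and lay between -0.14 and 0.086 when single libraries were left out. The genes called ranged from 5158 to 6398 and the pathway genes called from 45 to 61. The replicate block, for numbers whose meaning the labels do not give, gave 5727 genes called and changed no member's call. The share of *Pfkfb3* and the 5 log2 ratios kept their direction in every alternative tried.

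Some named pathway genes lost their call, with the highest adjusted p from limma given here. *Taldo1* (0.0812), *Slc2a1* (0.0596) and *Fzr1* (0.0682) did so with quantile normalization alone. *Pfkl* (0.114) did so with it, with eBayes without a trend and without N275D replicate 3, *Arrdc1* (0.0693) without WT replicate 2 or N275D replicate 1, and *Sesn1* (0.0992) with quantile normalization and without WT replicate 1 or N275D replicate 2. *Slc2a6* (0.126), *Akt1* (0.691), *Mapkapk2* (0.133), *Btrc* (0.159), the B cell marker *Pax5* (0.172) and *Trp53* (0.353) lost it in 5 to 9 alternatives, single libraries of both genotypes among them. The T cell marker *Cd3e* (0.0586) lost it with eBayes without a trend. Causes were not tested. Tests on read counts were planned and not run. With 3 libraries a group, an exact test of a single value cannot pass 0.05.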

Other observations

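The carbohydrate response element layout seen in the *Txnip* window was present in the windows of 14 genes, 8 of which were tested. *Txnip* (1.23) and *Fnip1*, which encodes a folliculin partner, were called higher. *Fnip1* went from a mean of 579 to 949 normalized reads, a log2 fold change of 0.72 (adjusted p = 1.63e-06 from limma). *Irak1bp1* (-0.36), *Rbbp4* (-0.24) and *Nfkb2* (-0.23) were called lower, and *A430005L14Rik* (-0.15), *Fem1b* (-0.07) and *Man2b2* (0.05) were not called. Over all genes tested, 24.7% were called higher and 26.1% lower, and so few genes cannot be told apart from that. The part of the layout in these changes was not tested.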
